A study of Homo sapiens with 15 samples.

Results

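Transcript levels of 9 genes were followed in immortalized human astrocytes (IHA) in which doxycycline switched on mutant IDH1: NNMT, which methylates nicotinamide, and the enzymes NAMPT, NAPRT, NMNAT1, NMNAT3, NADSYN1, NADK, NADK2 and NNT, which make, phosphorylate or reduce the nicotinamide coenzymes. They were taken by symbol from the deposited count tables, 9 of the 15230 genes listed in the table of untreated and day 7 libraries (the day 7 table) and 7 of the 12575 in the table that also holds day 3, which lists neither NMNAT3 nor NADK. IHA is a fetal astrocyte line immortalized with SV40. The 15 samples were 6 untreated, 4 at day 3 and 5 at day 7 of doxycycline at 1 µg/ml, which per the series' design text induces the R132H form of IDH1, a mutant enzyme that turns 2-oxoglutarate into 2-hydroxyglutarate with NADPH. Each title names b1 or b2, read here as batches. By these, the 6 untreated samples split evenly into 3 and 3, all 4 day 3 samples belong to b2, and the day 7 samples are 4 of b2 and 1 of b1. All samples have wild-type IDH1 as their genotype label, and none received doxycycline without the inducible gene, so doxycycline and mutant IDH1 cannot be told apart. Nor can doxycycline and time in culture, since untreated samples are labelled with no day, and no clone is named. Whether samples sharing a group came from separate cultures is not stated, so p-values here measure no more than the spread between these samples.

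NAD is rebuilt in human cells mainly by salvage. NAMPT joins nicotinamide to phosphoribosyl pyrophosphate to give nicotinamide mononucleotide (NMN), and the NMNAT enzymes turn NMN into NAD. NAPRT starts the parallel Preiss-Handler route from nicotinic acid, whose last step, the amidation to NAD, belongs to NADSYN1. NNMT moves the methyl group of S-adenosylmethionine (SAM) to nicotinamide, which removes nicotinamide from salvage and uses up a methyl donor. NADK in the cytosol and NADK2 in mitochondria phosphorylate NAD to NADP, and NNT in the inner mitochondrial membrane passes hydride from NADH to NADP. Astrocytes draw on NADPH to keep glutathione reduced.

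On GRCh38 (GENCODE annotation), NNMT lies on chromosome 11 at 114257787 to 114313285 (plus strand) and NADSYN1 on the same chromosome at 71453109 to 71524107 (plus). NMNAT1 lies on chromosome 1 at 9943428 to 9985501 (plus), NADK on chromosome 1 at 1751232 to 1780457 (minus) and NMNAT3 on chromosome 3 at 139560180 to 139678017 (minus). NADK2 lies on chromosome 5 at 36192592 to 36242279 (minus), NNT on chromosome 5 at 43602692 to 43707405 (plus) and NAMPT on chromosome 7 at 106248285 to 106286326 (minus). The annotation holds 3 pseudogenes of NAMPT and 5 of NMNAT1, with which reads may be shared, so the counts of these 2 genes are uncertain. It also holds the antisense genes NNT-AS1 over NNT and NADK2-AS1 over NADK2. The sources used here do not say whether strand was used in counting, so reads of such pairs cannot be told apart.

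The RefSeq table of promoter windows (GRCh38.p14, 250 bases before to 50 bases after a start) held 13 windows for 7 of the 9 genes. The E-box CACGTG, the palindrome bound by MYC, USF and related factors, was found in 3 of these windows (23.1%), one each in NNT, NADK and NADK2, against 7.26% of all 35116 promoter windows. These stretches are shown because NNT fell at day 7 in both batches of the day 7 table while the NAD kinases did not pass the test. The capitals mark the E-box, with 12 bases on either side, read on the gene's strand 5′ to 3′. Each E-box is placed from the start of its own window, and the other windows of these genes held none. It begins 30 bases before that start in NNT (chr5:43603138-43603167, plus strand). The distance is 61 bases in NADK (chr1:1778860-1778889, minus strand) and 136 in NADK2 (chr5:36242398-36242427, minus strand). The stretches of NNT and NADK lie within the GENCODE spans given above, so these are not the outermost starts. In NNT, 1 annotated exon of the gene overlaps the 250 bases before the start.
NNT: cggagctgcagtCACGTGgccgcccgccgc
NADK: cctgagccggccCACGTGgtccgggaggtc
NADK2: taaaccaatgggCACGTGgtcggcctgcag
The 13 windows held 5 to 38 CpG dinucleotides, against a median of 14 over all windows, and 6 of the 13 were above the upper quartile of 28. NAMPT, with 38, was at percentile 90.1 of all windows, and the 2 windows of NNT held 8 and 30. The E-box itself holds a CpG, and the windows with it held 30 (NNT), 36 (NADK) and 23 (NADK2). Its share was not taken over windows of like CpG content, and several windows belong to the same gene. The STAT motif TTCNNNGAA (7.66% of all windows), the AP-1 motif TGANTCA (7.71%) and the CRE motif TGACGTCA (1.85%) had no match in the 13 windows on either strand, which says only that these letters are not there. The hypoxia response core ACGTG, whose letters lie within the E-box, was in 5 of the 13 windows (38.5%, against 21.41% of all windows), 2 of them without an E-box.

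The libraries were made by MARS-seq, in which the 3′ ends of transcripts are counted and a unique molecular identifier (UMI) marks each molecule. Library totals were 2573290 to 5567651 UMIs for the day 7 table, and for the other 1816599 to 4656705. Levels are given as CPM, each library's counts scaled to a common total after TMM normalization. Of the 11 astrocyte markers read, GFAP, AQP4, ALDH1L1 and SLC1A2 are not in either table, which list only genes that reached 6 UMIs in some library, and S100B had 0 to 8 UMIs. VIM and CD44, which many cultured cells make, were abundant at 5981 to 9231 and 453.9 to 705.9 CPM in the day 7 table. The other 4 were low, at 14.0 to 41.9 CPM for SOX9, 27.7 to 117.3 CPM for ALDOC, 32.6 to 57.2 CPM for GJA1 and 2.37 to 6.07 CPM for SLC1A3. IDH1 had a log2 change of 0.22 ± 0.11 (SE) at day 7 (edgeR adjusted p = 0.178), and this 3′ tag does not check the induction, as the sources used here do not describe the 3′ end of the transgene. The tables do not hold the same counts for every gene. Over the 5 libraries whose labels tie them to a column in each table, the table with day 3 held 100.1% of the day 7 table's UMIs for NNMT and 100.2% for NAPRT. The share was 70.1% for NNT, 63.3% for NADSYN1, 60.9% for NAMPT, 53.7% for NADK2 and 39.7% for NMNAT1, and the cause was not tested.

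At day 7 the transcripts of NNMT, NAPRT and NNT were lower than in untreated cells, and none of the 8 tested members was called higher. With a batch term, edgeR's quasi-likelihood test called these 3 of the 8 members it could test (Benjamini-Hochberg adjusted p under 0.05), against 15.7% of all 12449 genes tested (1955 genes). Without the batch term none of the 3 passed, with adjusted p of 0.0615 for NNMT, 0.0901 for NAPRT and 0.054 for NNT (ranges over all alternatives of 1.31e-10 to 0.0642, 8.62e-06 to 0.0901 and 0.00111 to 0.292). The median log2 change of the 8 members was -0.23, beside -0.02 over all genes. NMNAT3, the mitochondrial NMN adenylyltransferase, had 0 to 8 UMIs per library and was left out by the filter on low counts. A lower level in bulk RNA cannot be told apart from fewer cells that make the transcript.

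NNMT stood at 125.7, 98.5, 115.5 and 133.2 CPM in the 4 day 7 libraries of b2, against 251.7, 283.3 and 271.5 CPM in the untreated libraries of b2. In b1 the day 7 library had 273.4 CPM, against 284.5, 265.4 and 272.3 CPM in the untreated libraries. Every day 7 library of b2 was thus below all 6 untreated libraries, while that of b1 lay within its untreated range. Within b2 NNMT fell by 1.18 ± 0.08 on the log2 scale (SE, edgeR adjusted p = 7.09e-11), a 2.27-fold fall. Within b1 the log2 change was -0.0047 ± 0.13 (SE, edgeR adjusted p = 0.99, 95% interval -0.26 to 0.25). The change in b2 minus that in b1 was -1.18 ± 0.15 (SE, edgeR adjusted p = 2.27e-05), where 2.64% of all genes were called, and the b1 side of it rests on 1 day 7 library.

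Over both batches the log2 change of NNMT was -0.80 ± 0.20 (SE, edgeR adjusted p = 0.0261). It had an adjusted p of 0.0555 to 0.0642 when day 7 b2-17, b2-19 or b2-20, or untreated b2-1, b2-2 or b2-4, was left out. Without the b1 day 7 library it was -1.17 (edgeR adjusted p = 1.31e-10), and over all alternatives the adjusted p ran from 1.31e-10 to 0.0642. The summed level of the 8 fibroblast and pericyte markers, of which 5 are listed, was 447.2 to 650.5 CPM in day 7 and 837.7 to 883.6 CPM in untreated libraries of b2. In b1 that sum was 991.1 CPM in the day 7 library and 992.8 to 1073 CPM in the untreated ones. In b2 the sum was lower at day 7, as NNMT was, and in b1 the day 7 library lay just under the lowest untreated one. Its part in the result was not tested. Of that list, THY1, PDGFRB and COL1A1 were not called within either batch (edgeR adjusted p of 0.134, 0.205 and 0.212 in b2 and 0.505, 0.137 and 0.634 in b1), and COL1A1, a collagen I chain, had 863.1 CPM in the b1 day 7 library against 692.5 to 803.0 CPM in the untreated ones. In b1 the day 7 library had 35.9 CPM of THY1 against 43.9 to 53.7 CPM untreated, and 25.9 CPM of PDGFRB against 34.8 to 39.7 CPM. COL3A1 was near the floor, at 0 CPM against 0.78 to 1.11 CPM. Of the 5 listed markers, COL1A1 alone was above its untreated range in b1. Over both batches THY1 fell by 0.40 ± 0.12 on the log2 scale (SE, edgeR adjusted p = 0.0362). COL1A2, the other collagen I chain, was lower at day 7 in both batches, at 84.3 ± 4.48 CPM (SD, n = 4) against 322 ± 15.3 CPM (SD, n = 3) in b2 and at 66.2 CPM against 200 ± 22.6 CPM (SD, n = 3) in b1. Other marker sums moved too. In b1 the keratinocyte and epithelium sum was 754.4 CPM at day 7 and 1027 to 1074 CPM untreated. In b2 it was 597.4 to 645.5 against 646.2 to 679.6 CPM. The low endothelium sum was lower at day 7 in both batches. The microglia and macrophage sum in b2 was 55.6 to 61.5 against 41.0 to 44.4 CPM. Astrocyte, neuron and oligodendrocyte lineage sums overlapped in b2. The part of these sums was not tested.

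**Figure D1:**
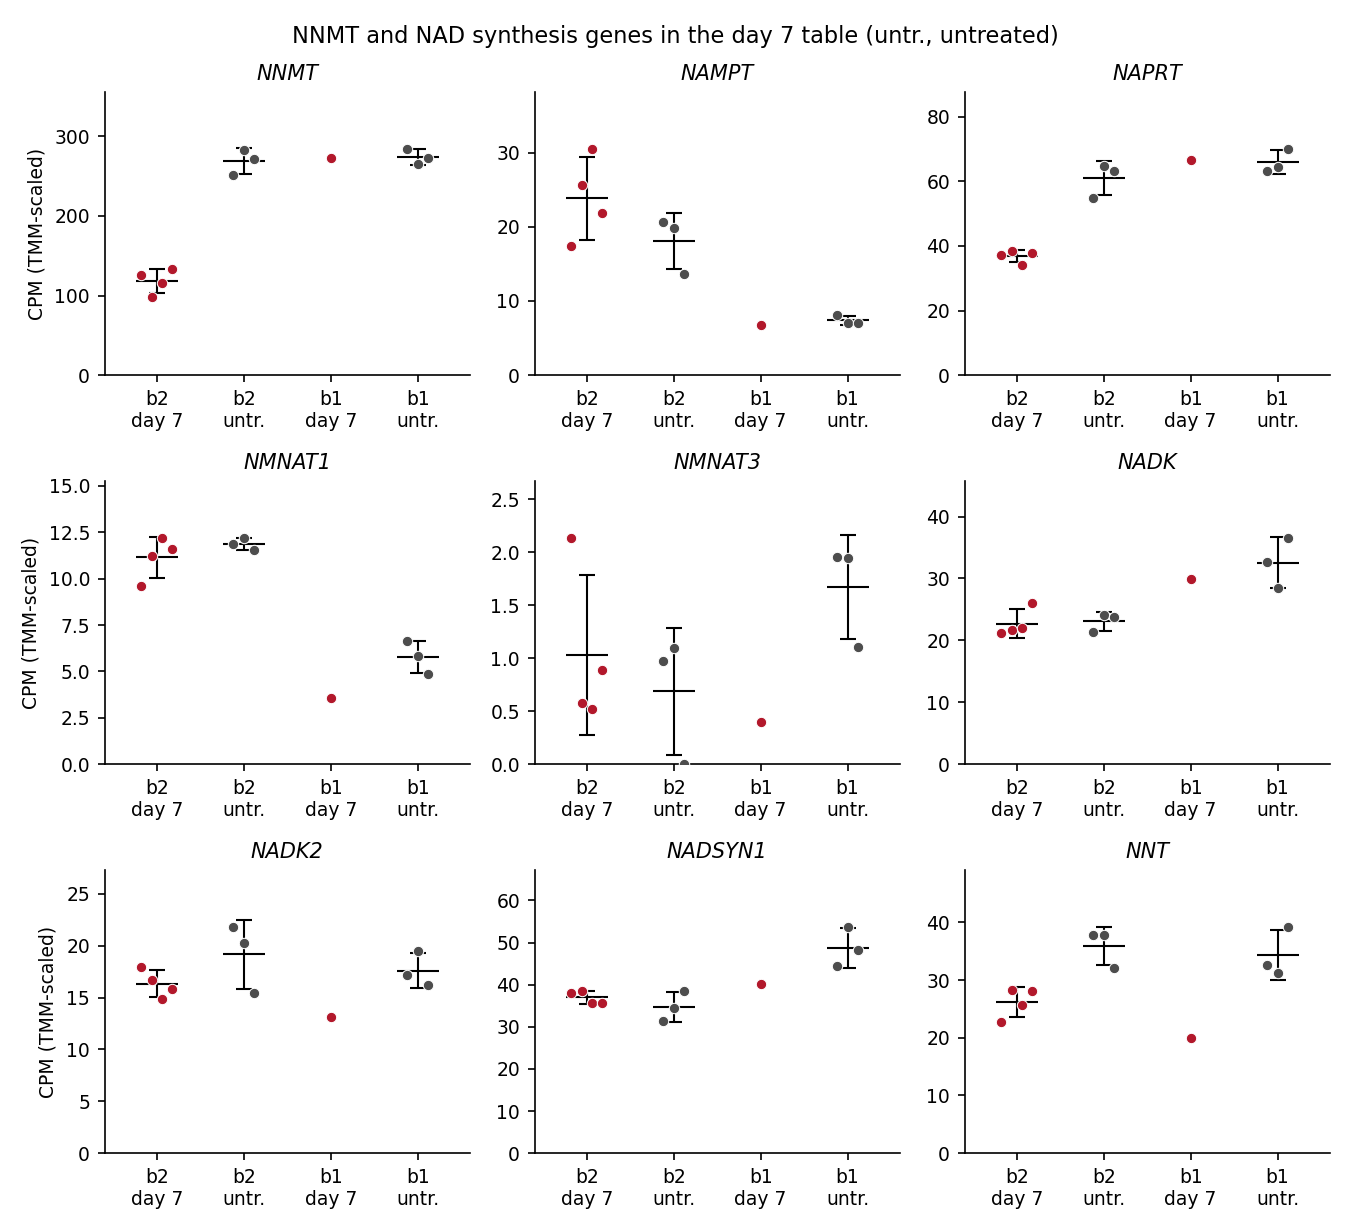
Levels of the 9 genes in the day 7 table, in CPM scaled by TMM from 0 upward. Points are libraries, day 7 in red and untreated in grey for each batch, and bars give the mean and SD where there are 2 or more libraries; NNMT and NAPRT are low in the 4 day 7 libraries of b2 alone, and NNT is low at day 7 in both batches.

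NAPRT, the entry enzyme for nicotinic acid (chromosome 8, 143574785 to 143578649, minus strand), had the same split between the batches. Its levels were 37.2, 38.3, 34.2 and 37.7 CPM at day 7 and 54.9, 64.7 and 63.0 CPM without doxycycline in b2. The day 7 library of b1 had 66.5 CPM, and its untreated libraries 63.2, 64.3 and 70.1 CPM. The groups did not overlap in b2, and in b1 the day 7 value lay inside the untreated range. NAPRT fell by 0.73 ± 0.10 on the log2 scale in b2 (SE, edgeR adjusted p = 6.46e-06) and by 0.51 ± 0.11 over both batches (edgeR adjusted p = 0.00302), with a log2 change of 0.012 ± 0.15 in b1 (adjusted p = 0.977). The change in b2 minus that in b1 was -0.74 ± 0.18 (SE, edgeR adjusted p = 0.0229). That difference did not pass when untreated b1-2 (adjusted p = 0.057), untreated b2-2 (0.0713) or untreated b2-4 (0.0513) was left out, within a range of 0.0123 to 0.0713 over all alternatives.

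NAMPT, the enzyme that limits the rate of nicotinamide salvage, did not pass the test at day 7. It had 17.4, 25.6, 30.5 and 21.9 CPM in day 7 libraries of b2, against 20.6, 19.9 and 13.7 CPM in untreated ones. In b1 the values were 6.77 CPM at day 7 and 8.09, 7.02 and 7.10 CPM in untreated libraries. Within b2 the ranges overlapped, 3 of 4 day 7 libraries lying above every untreated one. The log2 change was 0.31 ± 0.16 over both batches (SE, edgeR adjusted p = 0.217, 95% interval -0.03 to 0.65) and 0.39 ± 0.17 in b2 (adjusted p = 0.131). In b2 it passed without day 7 b2-17 (log2 change of 0.52, edgeR adjusted p = 0.0186, with adjusted p of 0.0186 to 0.414 over all alternatives).

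NMNAT1, the nuclear NMN adenylyltransferase, had 9.62, 11.2, 12.2 and 11.6 CPM at day 7 and 11.9, 12.2 and 11.5 CPM without doxycycline in b2. In b1 it had 3.59 CPM at day 7, from 9 UMIs, and 6.62, 5.85 and 4.88 CPM in untreated libraries. The ranges overlapped in b2, and the b1 day 7 value was the lowest of the 11. Its log2 change was -0.16 ± 0.16 over both batches (SE, edgeR adjusted p = 0.57, 95% interval -0.50 to 0.17). NADSYN1 had 38.0, 38.6, 35.6 and 35.7 CPM at day 7 and 31.3, 34.4 and 38.5 CPM without doxycycline in b2, and 40.2 CPM against 44.4, 53.8 and 48.1 CPM in b1. Here too the b2 ranges overlapped, and the b1 day 7 library lay below its 3 untreated ones. NADSYN1 had a log2 change of -0.0074 ± 0.10 (SE, with edgeR adjusted p = 0.97, 95% interval -0.21 to 0.20), and its sign turned under several alternatives.

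NADK, the cytosolic NAD kinase, had 21.1, 21.6, 22.0 and 26.1 CPM at day 7 and 21.4, 24.0 and 23.8 CPM without doxycycline in b2. In b1 NADK had 29.9 CPM at day 7, against 32.6, 28.5 and 36.6 CPM in untreated libraries. The ranges overlapped in both batches, and its log2 change was -0.05 ± 0.11 (SE, edgeR adjusted p = 0.793, 95% interval -0.29 to 0.18). NADK2, the mitochondrial kinase, had 17.9, 16.7, 14.8 and 15.8 CPM at day 7 and 21.8, 20.2 and 15.5 CPM without doxycycline in b2, and 13.2 CPM against 17.2, 19.5 and 16.2 CPM in b1. Its level was lower in the b1 day 7 library than in every untreated one, and the b2 ranges overlapped. The log2 change of NADK2 was -0.30 ± 0.13 (SE, edgeR adjusted p = 0.131, 95% interval -0.57 to -0.02).

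NNT, the mitochondrial transhydrogenase, was lower at day 7 in both batches of the day 7 table. Its levels were 22.7, 28.2, 25.6 and 28.1 CPM at day 7, against 37.9, 37.7 and 32.1 CPM in untreated libraries of b2. The 1 day 7 library of b1, which gives no spread of its own, had 19.9 CPM, and the untreated libraries of b1 had 32.6, 31.2 and 39.3 CPM. No day 7 library reached the lowest untreated library of either batch. NNT fell by 0.54 ± 0.11 on the log2 scale over both batches (SE, edgeR adjusted p = 0.00192), by 0.47 ± 0.12 in b2 (adjusted p = 0.00777) and by 0.80 ± 0.22 in b1 (adjusted p = 0.0256), with a difference between batches of 0.33 ± 0.25 (adjusted p = 0.538). The b2 fall did not pass without untreated b2-2 (edgeR adjusted p = 0.0595), nor did the b1 fall without untreated b1-3 (0.0904) or with DESeq2 (0.0711) or limma-voom (0.07), within ranges over all alternatives of 0.00581 to 0.0595 in b2 and 0.0137 to 0.0904 in b1. The counts of the table with day 3 were fitted with 3 groups, and 2 of the untreated libraries have no batch in their labels. In that fit NNT had a log2 change of -0.28 ± 0.15 at day 7 (SE, with edgeR adjusted p = 0.232). Its antisense gene NNT-AS1 had a log2 change of -0.35 ± 0.25 (SE, with edgeR adjusted p = 0.383) in the day 7 table and fell by 0.94 ± 0.23 (adjusted p = 0.00485) in the other.

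**Figure D2:**
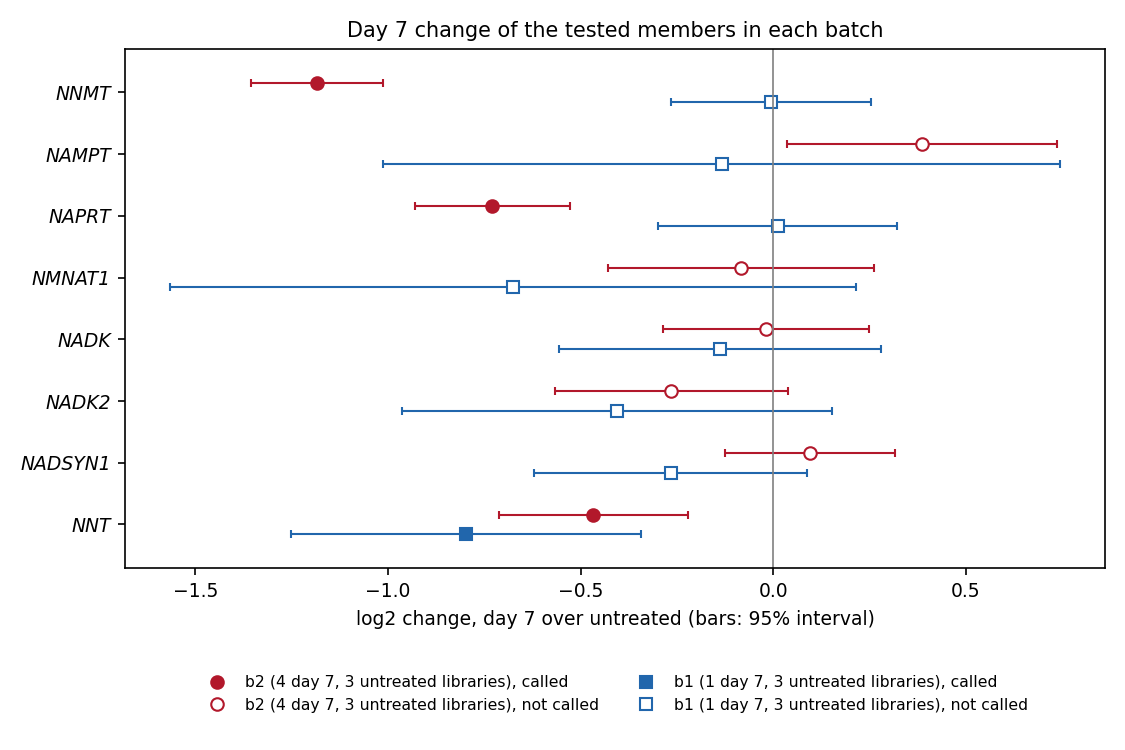
Log2 change at day 7 over untreated for the 8 tested genes, b2 as red circles and b1 as blue squares, with 95% intervals and filled symbols where the edgeR adjusted p was under 0.05. In b2 NNMT (-1.18), NAPRT (-0.73) and NNT (-0.47) are filled, and in b1 NNT alone (-0.80), where b1 has 1 day 7 library and wider intervals.

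Read by batch, 3 of 8 members were called at day 7 within b2, where 15.7% of all genes were called (1952), and 1 of 8 within b1, where 7.51% were (935). For the difference of the changes 2 of 8 were called, NNMT and NAPRT, against 2.64% of all genes (329). In the table with day 3, where untreated X1 and X2 have no batch in their labels, NNMT fell by 1.22 ± 0.08 on the log2 scale at day 7 (SE, edgeR adjusted p = 4.04e-12) and NAPRT by 0.75 ± 0.10 (adjusted p = 7.98e-06). These were 2 of the 7 members tested there, against 15.6% of all 10586 genes (1649). By their labels the 4 day 7 libraries and untreated b2-4 are in both tables, so these values are not independent of those above.

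Before any doxycycline 4 of the 8 tested members were called between the batches by the day 7 table's counts, a share near the 46.6% of all genes (5806). In untreated cells NAMPT was 2.48-fold higher in b2 than in b1, at 18.1 ± 3.81 against 7.40 ± 0.597 CPM (SD, n = 3 each), with a log2 difference of 1.31 ± 0.22 (SE, edgeR adjusted p = 2.98e-05). NMNAT1 was 2.07-fold higher in b2, at 11.9 ± 0.342 against 5.78 ± 0.871 CPM (SD, n = 3 each, edgeR adjusted p = 0.000161). NADK was lower in b2, at 23.1 ± 1.48 against 32.5 ± 4.07 CPM, as was NADSYN1, at 34.8 ± 3.62 against 48.8 ± 4.75 CPM (SD, n = 3 each, log2 differences of -0.51 ± 0.14 and -0.49 ± 0.11, edgeR adjusted p = 0.00284 and 0.000884). In none of these 4 genes, picked here as called, did the untreated ranges of the batches overlap, which was not counted over all genes. In libraries of both tables, the one with day 3 held 60.9% of the UMIs for NAMPT, 39.7% for NMNAT1 and 63.3% for NADSYN1. Its untreated libraries, X1 and X2 with no batch in their labels among them, had 7.83 to 16.1, 5.22 to 6.54 and 23.2 to 28.3 CPM of these. What part this counting has in the batch differences was not tested. The log2 differences of NNMT (-0.03 ± 0.09), NAPRT (-0.12 ± 0.10), NNT (0.06 ± 0.13) and NADK2 (0.16 ± 0.16) did not pass, so the genes that were lower at day 7 had no called difference in their untreated level. NNMT stood at 268.9 ± 15.96 CPM in untreated b2 and 274 ± 9.67 CPM in untreated b1 (SD, n = 3 each).

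The table with day 3 gave 2 times of doxycycline, with all treated libraries of b2. Of its 3 untreated libraries 1 is labelled b2-4, and X1 and X2 carry descriptions that samples of both batches share. X2 totals 4369979 UMIs there, while b1-2 and b2-2 total 2573290 and 5260837 in the day 7 table. X1 totals 3327043, while b1-1 and b2-1 total 4202524 and 3994061. Every library labelled in both tables has a lower total in the table with day 3. In those libraries COL1A1 and COL1A2 kept 90.2% and 93.2% of their UMIs. In the 3 untreated libraries here they had 256.6 to 290.6 and 347.5 to 387.3 CPM. In the day 7 table untreated b2 had 237.8 to 268.5 and 306.8 to 337.4 CPM. Untreated b1 had 692.5 to 803.0 and 175.7 to 220.4 CPM. Both genes were picked after their values were seen. Neither column was assigned a batch here. At day 3 edgeR called 1 of the 7 members, NAPRT, against 3.51% of 10586 genes (372). From day 3 to day 7 it also called 1 of 7, NNMT, against 5.07% (537). The median log2 change of the 7 members was -0.17 at day 3 and 0.04 from day 3 to day 7, beside 0.0050 and 0.0070 over all genes.

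NNMT had 332.2, 310.5 and 346.3 CPM in the untreated libraries, 307.0, 287.3, 267.1 and 310.4 CPM at day 3, and 149.3, 118.8, 140.7 and 156.1 CPM at day 7. All 4 day 3 libraries lay below the untreated ones, the nearest pair being 310.4 and 310.5 CPM, and all 4 day 7 libraries lay far below both. At day 3 the log2 change of -0.17 ± 0.08 did not pass (SE, edgeR adjusted p = 0.271). From day 3 to day 7 NNMT fell by 1.05 ± 0.08 on the log2 scale (SE, edgeR adjusted p = 1.09e-10), a 2.07-fold fall seen in 4 of 4 day 7 libraries. The summed fibroblast and pericyte markers, 4 of 8 listed here, were at 1229 to 1292 CPM in untreated libraries, 1030 to 1071 CPM at day 3 and 788.9 to 1013 CPM at day 7. Their part in the fall was not tested. THY1, which enters this sum, has 206.4% of its day 7 table UMIs here, so the sum cannot be set against that of the day 7 table. In the authors' deposited table, whose ratios are of earlier over later samples, so that the sign was turned here, the log2 changes of NNMT were -0.17 at day 3 (adjusted p = 0.511) and -1.06 from day 3 to day 7 (adjusted p = 9.47e-30).

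NAPRT was lower from day 3 on. It had 76.5, 66.3 and 79.3 CPM in untreated libraries, 56.3, 58.1, 57.2 and 43.4 CPM at day 3, and 45.4, 46.2, 41.8 and 43.8 CPM at day 7. The 4 day 3 libraries were all below the untreated ones, and day 3 b2-12, the lowest at day 3, lay inside the day 7 range. NAPRT fell by 0.47 ± 0.11 on the log2 scale at day 3 (SE, edgeR adjusted p = 0.0115) and had a log2 change of -0.28 ± 0.11 from day 3 to day 7 (adjusted p = 0.126). Without day 3 b2-12 the day 3 change was -0.37 (edgeR adjusted p = 0.0677) and the later one -0.38 (adjusted p = 0.0411). The day 3 call was also lost without untreated X2 (adjusted p = 0.1) and with X1 and X2 both left out (adjusted p = 0.203, range 0.00363 to 0.203), and the later change ranged from 0.0411 to 0.311 in adjusted p.

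The other 5 members of that table did not pass at day 3 or from day 3 to day 7. NAMPT had 7.83, 16.1 and 9.58 CPM in untreated libraries, 13.0, 16.8, 22.5 and 11.1 CPM at day 3 and 11.7, 21.2, 22.9 and 15.6 CPM at day 7, all 3 groups overlapping. Its log2 change was 0.49 ± 0.30 at day 3 (SE, edgeR adjusted p = 0.442) and 0.67 ± 0.27 at day 7 against untreated (adjusted p = 0.115). NNT had 18.7, 33.0 and 31.2 CPM in untreated libraries, of which b2-4 was the low one, 23.1, 21.9, 22.1 and 24.5 CPM at day 3, and 22.4, 26.4, 21.2 and 24.5 CPM at day 7. With X1 and X2 left out, the log2 change of NNT at day 3 was 0.29, in place of -0.31 ± 0.16. NNT-AS1 fell at day 3 by 1.20 ± 0.26 on the log2 scale (SE, edgeR adjusted p = 0.00589), at 13.5, 11.6 and 10.2 CPM in untreated libraries and 3.95 to 6.76 CPM at day 3.

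NMNAT1, NADK2 and NADSYN1 overlapped between all 3 groups of that table. NMNAT1 averaged 5.999 ± 0.694 CPM in untreated libraries (SD, n = 3), 4.57 ± 1.24 CPM at day 3 and 5.64 ± 1.33 CPM at day 7 (SD, n = 4 each). NADK2 averaged 14.3 ± 3.44, 13.4 ± 2.31 and 10.7 ± 2.58 CPM in the same order, and NADSYN1 24.9 ± 2.94, 24.8 ± 5.41 and 28.4 ± 2.19 CPM. NMNAT1 rested on 9 to 28 UMIs per library, and its SE at day 3 was 0.30 on the log2 scale.

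**Figure D3:**
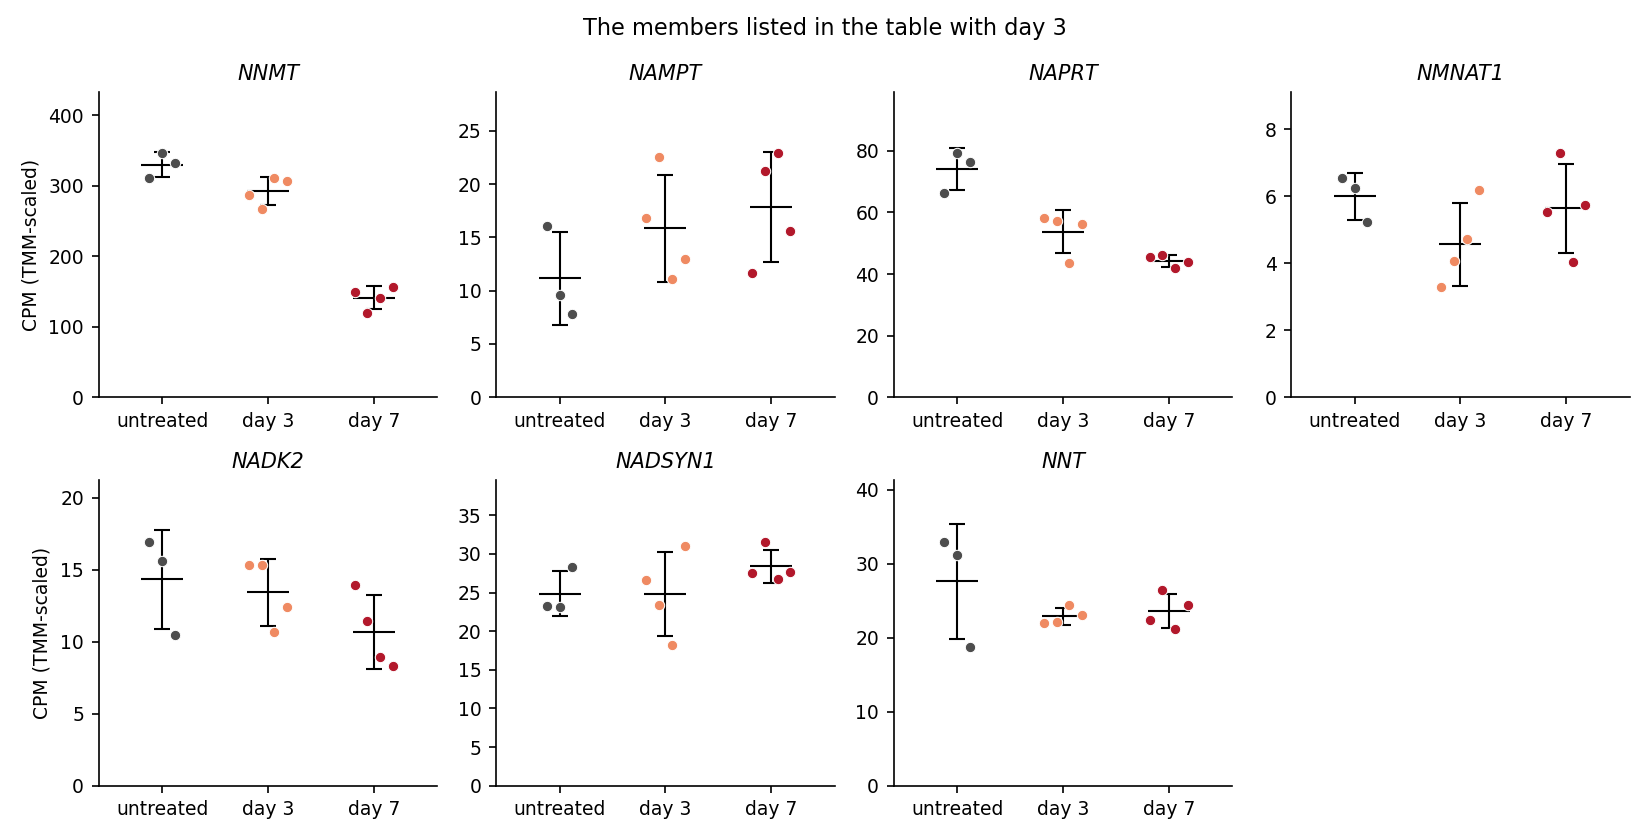
Levels of the 7 members listed in the table with day 3, in CPM scaled by TMM from 0 upward, for untreated, day 3 and day 7 libraries (points), with mean and SD bars (n = 3, 4 and 4). NAPRT is lower from day 3 on, NNMT averages 293 CPM at day 3 and 141 CPM at day 7 beside 330 CPM in untreated libraries, and the other 5 overlap between groups.

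The genes whose log2 CPM ran most like NNMT over the 11 libraries of the day 7 table, with the batch difference removed and among the 6882 genes that averaged 20 CPM or more, were IFITM3 (r = 0.987), an interferon-induced membrane protein, PSAT1 (0.978), of serine synthesis, YARS1 (0.976), the tyrosyl-tRNA synthetase, ISYNA1 (0.973), which makes inositol phosphate, and TSTD1 (0.972). Their log2 changes at day 7 ran from -1.17 for PSAT1 to -0.43 for YARS1. In the table with day 3 the nearest were MRC2 (r = 0.980), a collagen receptor, H1F0, a linker histone, PTPRF, a receptor phosphatase, CSPG4, a proteoglycan, and ACBD5 (0.962). NAMPT had looser neighbours in the day 7 table, from CNIH1 (r = 0.894) and SEM1 (0.871) to PPAT, SNHG16 and SMURF2 (0.843), and in the other table ZDHHC6 (0.947), PAK1IP1, CDK7, RNF10 and EIF3M (0.882). These correlations are descriptions over libraries that share groups and treatment, and the neighbours of each gene were different genes in the 2 tables.

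Beyond the members, QPRT of synthesis from quinolinate fell at day 7, and NMNAT2, PNP and NT5E rose. Of 16 other genes of NAD synthesis and salvage 9 were tested, 3 were called higher and 1 lower, where 15.7% of all genes were called (median log2 change of -0.14, beside -0.02 over all genes). QPRT, which makes nicotinic acid mononucleotide from quinolinate, had 6.68, 1.73, 3.66 and 2.68 CPM at day 7 and 19.9, 16.4 and 14.4 CPM without doxycycline in b2, and 6.38 CPM against 18.9, 14.0 and 14.4 CPM in b1. It was below every untreated library in both batches and fell by 2.00 ± 0.24 on the log2 scale, 4.01-fold (SE, edgeR adjusted p = 8.03e-06). PNP, which splits nicotinamide riboside and purine nucleosides, rose by 0.93 ± 0.15 (adjusted p = 0.00102), at 97.1 ± 21.8 CPM at day 7 (SD, n = 4) against 45.6 ± 4.94 CPM untreated (n = 3) in b2, and 118 against 77.1 ± 13.7 CPM (n = 3) in b1. NT5E, the ectonucleotidase CD73, rose by 0.44 ± 0.11 (adjusted p = 0.00938), at 121 ± 4.37 against 79.1 ± 12.8 CPM in b2 and 73.3 against 74.8 ± 9.11 CPM in b1.

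NMNAT2, the cytosolic NMN adenylyltransferase best known from axons, had log2 changes of opposite sign in the 2 batches. It had 30.5, 22.5, 25.5 and 27.0 CPM at day 7 and 13.1, 13.3 and 11.9 CPM without doxycycline in b2, where the groups were apart and it rose by 1.03 ± 0.14 on the log2 scale (SE, edgeR adjusted p = 1.11e-05). In b1 it had 11.6 CPM at day 7 against 18.1, 17.1 and 16.4 CPM in untreated libraries, a log2 change of -0.57 ± 0.27 that did not pass (adjusted p = 0.206). The difference of 1.61 ± 0.30 between the batches passed (edgeR adjusted p = 0.00265), as did that of AOX1 (1.09 ± 0.28, adjusted p = 0.029), an aldehyde oxidase that breaks down methylated nicotinamide. AOX1 fell in b1, at 15.9 CPM in the day 7 library against 35.0 ± 4.59 CPM (SD, n = 3) in untreated libraries, and had 17.8 ± 0.683 CPM at day 7 against 19.0 ± 2.34 CPM untreated (SD over 4 and 3 libraries) in b2.

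Of 22 NAD consumers 21 were tested at day 7, of which 1 was called higher and 2 lower, a share near the 15.7% of all genes (median log2 change of -0.10, beside -0.02 over all genes). BST1, an ADP-ribosyl cyclase (-0.73 ± 0.16, SE, edgeR adjusted p = 0.00376), and PARP14, a mono-ADP-ribosyltransferase (-0.49 ± 0.12, adjusted p = 0.00551), fell, and SARM1, an NAD hydrolase, rose (0.55 ± 0.15, adjusted p = 0.0117). BST1 stood at 9.26 ± 0.248 CPM at day 7 against 18.4 ± 2.63 CPM untreated in b2 (SD over 4 and 3 libraries) and at 19.9 against 20.3 ± 3.14 CPM in b1, a difference between the batches of -0.97 ± 0.29 that did not pass (adjusted p = 0.0726). Of 16 carriers, transporters and breakdown enzymes 11 were tested, with 1 called higher, SLC29A1 (0.53 ± 0.11), the equilibrative nucleoside transporter ENT1, and 2 lower, beside the same 15.7%. The lower pair was HDDC3 (-0.51 ± 0.13), an NADPH phosphatase, and SLC12A8 (-0.41 ± 0.12), reported in mouse as an NMN transporter. SARM1 is held by the table with day 3 at 20.6% of the day 7 table's UMIs, and its log2 change there was 0.44 ± 0.42 (SE, edgeR adjusted p = 0.539).

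Over both batches, 1 gene of the methyl cycle, which supplies NNMT with SAM, was called, and 2 NADP-linked genes, shares below the 15.7% of all genes called. Within b2 the shares were above the 15.7% of all genes called there, at 3 of 11 methyl cycle and 6 of 15 NADP-linked genes tested. Of 13 methyl cycle genes listed, 11 were tested at day 7, and AHCYL1, a relative of the hydrolase of S-adenosylhomocysteine, fell by 0.32 ± 0.08 on the log2 scale (SE, edgeR adjusted p = 0.00613). MAT2A, the SAM synthetase, had a log2 change of 0.18 ± 0.08 (adjusted p = 0.112) and AHCY, the hydrolase itself, one of 0.01 ± 0.08 (adjusted p = 0.935). Of 16 NADP-linked partners of NNT 15 were tested, of which ALDH1L2, a mitochondrial folate dehydrogenase that yields NADPH, fell by 1.87 ± 0.23 (edgeR adjusted p = 4.69e-06) and MTHFD2L rose by 0.43 ± 0.11 (adjusted p = 0.01). ALDH1L2 was low throughout, at 2.85 ± 0.381 CPM at day 7 against 10.6 ± 2.42 CPM untreated in b2 (SD over 4 and 3 libraries) and 1.59 against 4.42 ± 1.06 CPM in b1 (SD, n = 3). MTHFD2L had 6.07% of its day 7 table UMIs in the other table and was not tested there. IDH2, the mitochondrial NADP-linked isocitrate dehydrogenase, fell within b2 by 0.34 ± 0.08 (adjusted p = 0.00385), with a log2 change of 0.09 ± 0.12 in b1 (adjusted p = 0.71).

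Within b2, where 15.7% of all genes were called, some further listed genes passed at day 7. The share was 4 of 9 in NAD synthesis and salvage, 3 of 21 in NAD consumers and 2 of 11 in carriers and breakdown enzymes. It was 3 of 11 in the methyl cycle list and 6 of 15 in the NADP-linked list. Of the NAD consumers SIRT1, a deacetylase, fell (-0.60 ± 0.19 on the log2 scale, SE, edgeR adjusted p = 0.0372) beside BST1 and PARP14. In the methyl cycle list MTAP, of methionine salvage, rose (0.30 ± 0.10, adjusted p = 0.0433). TXNRD1, the cytosolic thioredoxin reductase, rose (0.34 ± 0.07, adjusted p = 0.000956), and H6PD, the hexose-6-phosphate dehydrogenase of the endoplasmic reticulum, fell (-0.39 ± 0.12, adjusted p = 0.0208). The b1 changes that follow rest on 1 day 7 library, which gives no spread of its own. Within b1, besides AOX1, SLC12A8 (-0.80 ± 0.21, adjusted p = 0.0184) and AHCYL1 (-0.50 ± 0.13, adjusted p = 0.0205) fell, and PGD, of the pentose phosphate pathway, rose (0.50 ± 0.12, adjusted p = 0.0107). The change in b2 minus that in b1 also passed for H6PD (-0.91 ± 0.22, edgeR adjusted p = 0.0233) and TXNRD1 (0.46 ± 0.13, adjusted p = 0.0459).

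Between untreated b2 and b1, 46.6% of all genes were called. The share was below this in NAD consumers (7 of 21) and in carriers and breakdown enzymes (4 of 11). It was above this in the methyl cycle (7 of 11) and NADP-linked (10 of 15) lists. In NAD synthesis and salvage 6 of 9 genes were lower in b2 and 0 higher (6 of 9 at an unadjusted p under 0.05). They were AOX1, AFMID, PNP, HAAO, NMNAT2 and NMRK1, with log2 differences of -1.13 for HAAO to -0.42 for NMNAT2. Of the 21 NAD consumers 2 were higher, PARP1 (1.22 ± 0.10, SE, edgeR adjusted p = 2.48e-09), the main poly-ADP-ribose polymerase, and SIRT1 (1.33 ± 0.23, adjusted p = 6.63e-05). A further 5 were lower, among them the deacetylases SIRT2 (-0.65 ± 0.10) and SIRT6 (-0.62 ± 0.13). Of the 11 methyl cycle genes 5 were higher, led by MTR, the methionine synthase (1.15 ± 0.14, adjusted p = 3.37e-07), MTAP (0.88 ± 0.12) and AHCYL1 (0.60 ± 0.09), and 2 were lower. The NADP-linked list had 5 higher and 5 lower of 15, with ALDH1L2 (1.28 ± 0.25) among the higher and TXNRD2 (-0.77 ± 0.12), PGLS (-0.61 ± 0.10) and ME3 (-0.95 ± 0.19) among the lower. Of the 11 carriers and breakdown enzymes HDDC3 (0.49 ± 0.14) was higher, and SLC29A1 (-1.01 ± 0.13), SLC25A51 (-0.51 ± 0.19), the mitochondrial NAD carrier, and SLC12A8 (-0.30 ± 0.12) were lower. In libraries of both tables, the one with day 3 held 34.7% (MTAP) to 59.1% (AHCYL1) of the UMIs for MTAP, PARP1, MTR, SIRT1 and AHCYL1. ALDH1L2 had 82.2%, HDDC3 84.6% and the lower SLC25A51 11.5%. PARP1 stood there at 173.1 to 188.6 CPM untreated. In the day 7 table it stood at 353.5 to 364.4 CPM in untreated b2 and 136.4 to 178.5 CPM in untreated b1. The part of counting in these differences was not tested.

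**Figure D4:**
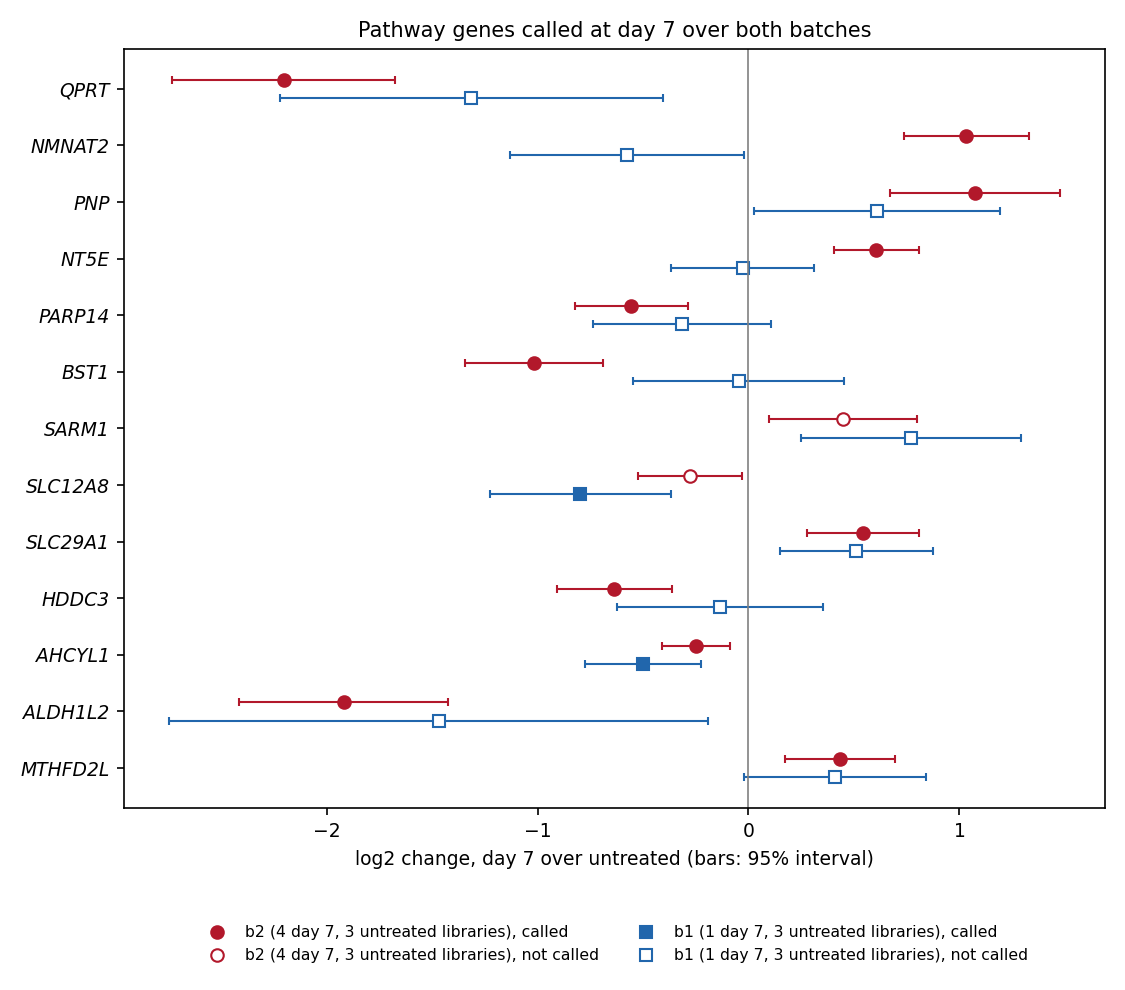
Log2 change at day 7 over untreated for the 13 listed NAD, SAM and NADP genes called over both batches, b2 as red circles and b1 as blue squares, with 95% intervals and filled symbols where the edgeR adjusted p was under 0.05 within that batch. QPRT and ALDH1L2 lie far to the left in both batches, and NMNAT2 lies at 1.03 in b2 and at -0.57 in b1.

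In the table with day 3, QPRT, AOX1 and ALDH1L2 were lower at day 3, and NMNAT2, PNP and NT5E rose from day 3 to day 7. QPRT had 11.3, 19.9 and 14.0 CPM in untreated libraries, 3.94, 5.48, 4.95 and 8.69 CPM at day 3 and 6.17, 1.39, 3.18 and 2.34 CPM at day 7. It was below every untreated library at both times and fell by 1.37 ± 0.30 on the log2 scale at day 3 (SE, edgeR adjusted p = 0.00952), with a log2 change of -0.86 ± 0.36 after that (adjusted p = 0.197). AOX1 fell by 0.78 ± 0.16 at day 3 (adjusted p = 0.00481) and rose by 0.71 ± 0.15 from day 3 to day 7 (adjusted p = 0.00438), at 22.8 ± 1.76 CPM in untreated libraries (SD, n = 3), 13.0 ± 2.29 CPM at day 3 and 21.5 ± 1.09 CPM at day 7 (SD, n = 4 each). ALDH1L2 fell by 2.23 ± 0.32 at day 3 (adjusted p = 5.62e-05). NMNAT2 averaged 15.4 ± 0.523 CPM (SD, n = 3), 21.7 ± 2.07 CPM and 31.9 ± 4.08 CPM (SD, n = 4 each) in that order. Its 3 groups did not overlap, the day 3 change did not pass (0.50 ± 0.16, adjusted p = 0.0799), and it rose by 0.54 ± 0.13 from day 3 to day 7 (edgeR adjusted p = 0.0111).

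PNP (0.76 ± 0.19 on the log2 scale, SE, edgeR adjusted p = 0.0398) and NT5E (0.54 ± 0.12, adjusted p = 0.00625) also rose from day 3 to day 7, and PARP14 (-0.62 ± 0.13, adjusted p = 0.00329) and AHCYL1 (-0.25 ± 0.07, adjusted p = 0.0447) fell. At day 3 edgeR called 2 of 8 tested genes of NAD synthesis and salvage and 1 of 14 NADP-linked genes, where 3.51% of all genes were called. It called 0 of 20 NAD consumers, 0 of 6 carriers and breakdown enzymes and 0 of 11 methyl cycle genes, where 2, 1 and 0 had an unadjusted p under 0.05. From day 3 to day 7 it called 4 of 8 genes of NAD synthesis and salvage, all higher, against 5.07% of all genes.

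**Figure D5:**
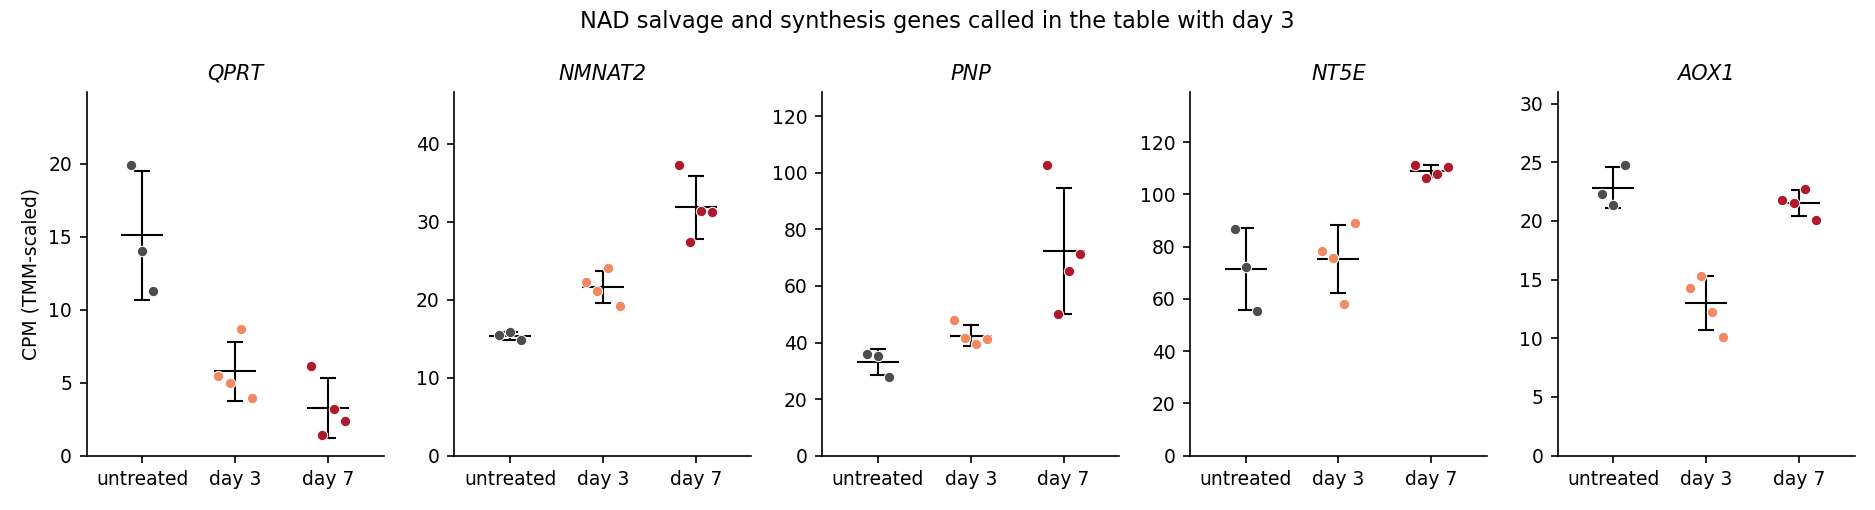
Levels of QPRT, NMNAT2, PNP, NT5E and AOX1 in the table with day 3, in CPM scaled by TMM from 0 upward, for untreated, day 3 and day 7 libraries (points), with mean and SD bars (n = 3, 4 and 4). QPRT is lower from day 3 on, NT5E is higher at day 7, and AOX1 is lower at day 3 alone. NMNAT2 and PNP have higher levels at each later time, but neither was called at day 3.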

How the data were processed

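Bulk MARS-seq profiles of 15 samples were deposited by the authors as 2 tables of UMI counts, whole numbers per gene and library. Per the submitters' processing notes, bcl2fastq, cutadapt, STAR 2.4.2a, HTSeq and DESeq2 were used with hg38. The log2 fold changes and adjusted p-values in the same tables were deposited by the authors. The 55 columns of other per-sample values were not used. Column names were matched to samples by title or description. The descriptions X1 and X2 fit samples of both batches, so these columns were read as untreated only.

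Each table was fitted on its own with edgeR 4.0.16 (R 4.3.3): filterByExpr, TMM scaling, robust quasi-likelihood test, Benjamini-Hochberg adjustment over all genes tested (12449 and 10586), threshold 0.05. The day 7 fit had a batch term, and changes within batches and their difference came from a fit of group by batch. In that fit the b1 day 7 group is 1 library, so SE and p for b1 take their spread from the other groups. CPM used TMM-scaled totals. Neighbours were ranked by Pearson r of log2 CPM (prior count 2). The scripts were tested on simulated data with 200 changed genes. Alternatives were DESeq2 1.42.0, limma-voom (limma 3.58.1), other scalings and filters, no batch term, b2 alone and leaving out each library. Leaving out X1 and X2 together and the fits within batches were chosen after seeing the data. Text names every member, IDH1 and, per pathway list and comparison, up to 4 called genes with the smallest p, plus a few genes beside them chosen after their values were seen (NNT-AS1, COL1A2, COL1A1, THY1, PDGFRB, MAT2A, AHCY, and values of named genes in other comparisons). A gene taken by this rule is not reported here. The members and lists were chosen with earlier results of these data known. Sequences are from RefSeq. Figures were drawn with matplotlib 3.10.9. Protein sequences were not used here.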

Additional observations from a re-analysis of the deposited data

Results flagged for a closer look

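NAPRT in the day 3 library b2-12 stood at 43.4 CPM, apart from the other 3 day 3 libraries at 56.3 to 58.1 CPM. The gap to the nearest of them was 0.878 of the group's range, more than the 95% critical value for 4 samples. Chance alone puts about 1 in 20 groups past that value, and 23 groups were tested.

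The day 7 change of NNMT differed between the batches by -1.18 on the log2 scale (b2 minus b1), and that of NAPRT by -0.74, both past the test of the difference itself. The b1 side rests on 1 day 7 library in each case.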

How the results depend on the processing

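Of 38 member changes in the comparisons over both batches, between batches and over time, 24 kept their direction and side of the threshold under every alternative run, among them the NNMT fall from day 3 to day 7 and its difference between b2 and b1. Over all member changes, those within batches included, 885 of 939 alternative values altered neither, 20 lost a call, 2 gained one and 32 turned the sign. Without a batch term edgeR called 0 members at day 7 (3 at an unadjusted p under 0.05) and 323 genes in all. With X1 and X2 left out together, 0 members (2 unadjusted) and 40 genes were called at day 3. Leaving out 1 library gave 0 to 1 members and 191 to 578 genes at day 3, 1 to 2 members from day 3 to day 7, and 1 to 2 members for the difference between batches. It gave 1218 to 2193 genes within b2, and 0 to 1 members and 591 to 1372 genes within b1, where edgeR without untreated b1-3 called 0 members (1 unadjusted). DESeq2 called 1180 genes within b2. Within b1 DESeq2 and limma-voom each called 0 members (1 unadjusted), and limma-voom 601 genes. The cause was not tested.

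Sign changes were in values that did not pass. At day 7 NADK was 0.00032 and NADSYN1 0.11 with b2 alone, NADSYN1 was 0.0051 with DESeq2, 0.0044 with RLE size factors, 0.011 with no filter and 0.20 with counts of the table holding day 3, and NMNAT1 was 0.17 without a batch term. Without X1 and X2, NADK2 was 0.36 and NNT 0.29 at day 3. With library size alone, NNMT was 0.037 between untreated batches (b2 minus b1) and NAPRT -0.11 within b1, where NAPRT was -0.018 with at least 10 counts in every library. NNMT within b1 was 0.015 with DESeq2 and with RLE size factors and 0.0012 with no filter, and NADK within b2 was 0.0037 with no filter. Leaving out 1 library gave NADSYN1 -0.073 to 0.11 at day 7 and -0.10 to 0.13 at day 3, NNT -0.015 to 0.086 from day 3 to day 7, and NNMT -0.068 to 0.020 between untreated batches. It gave NADK -0.093 to 0.029 within b2, NAPRT -0.012 to 0.064 and NNMT -0.025 to 0.031 within b1. No paired analysis was possible because the groups share no replicate numbers. Depth limits NMNAT3 and NMNAT1, with 0 to 8 and 9 to 70 UMIs per library.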
